A study of Mus musculus with 4 samples.

Results

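The genes described here are 10 transcripts known from migrating neuroblasts and immature neurons, out of 20032 genes listed by symbol in RNA sequencing of the mouse olfactory bulb. They were taken by name (Dcx, Cd24a, Tubb3, Sox4, Sox11, Igfbpl1, Dpysl3, Ncam1, St8sia2 and St8sia4), and all 10 were in the deposited table. Bulbs of 2 DCKO samples were compared with bulbs of 2 controls at postnatal day 11, 1 library each. The DCKO mice carried Dlx5/6-CIE, a transgene in which a Dlx5/6 enhancer of GABAergic precursors drives Cre, with both alleles of Sp8 and of Sp9 floxed (Sp8 Flox/Flox; Sp9 Flox/Flox). The controls were littermates without Cre, and which floxed alleles they carried is not given in the sources used here. All 4 libraries came from a mixed background of C57BL/6J, 129S6 and CD1. Cre acts only where the enhancer was active, so other cells of the DCKO bulb keep both genes. Nothing in the labels says whether the replicates were separate animals or pools, so p-values measure the spread between these libraries. Between the controls that spread may be technical. The DCKO libraries were not made from the same RNA, by the Xist levels given below, but part of their spread may be technical too.

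Interneurons of the olfactory bulb are born in the wall of the forebrain ventricles and migrate into the bulb as neuroblasts, a traffic that continues after birth. These cells carry doublecortin on their microtubules and long chains of polysialic acid on the adhesion molecule NCAM, which lowers adhesion and lets them slide past each other. As they settle and mature, doublecortin and polysialic acid are lost. Several of the 10 genes are also used by other young or growing neurons, and Tubb3 and Ncam1 stay on in mature ones.

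The libraries held 14899179 and 14632502 scaled fragment counts in DCKO and 15033308 and 15400982 in controls, and the 10 genes had between 260 and 19518 of these per library. Sp8, a zinc finger factor, was at 1.68 and 2.03 FPKM in DCKO and at 32.0 and 26.7 FPKM in controls, and its partner Sp9 at 0.0674 and 0.236 FPKM in DCKO and at 24.0 and 30.7 FPKM in controls. FPKM are fragment counts scaled to transcript length and library size. Xist, the transcript of the inactive X chromosome, stood at 77.0 FPKM in DCKO replicate 1 and at 0.0341 FPKM in DCKO replicate 2. Controls had 0.0252 and 0.0355 FPKM. By these levels DCKO replicate 1 held RNA of female cells, and the other libraries little or none. The DCKO libraries were therefore not made from the same RNA, and sex was not matched between the groups. Most of the listed olfactory sensory neuron markers were highest in control replicate 1. The channel gene Cnga2, the most extreme, was at 0.206 and 0.212 FPKM in DCKO, against 10.2 and 0.303 FPKM in controls. Gng13 was not highest there, at 146 and 119 FPKM in DCKO and 144 and 68.0 FPKM in controls. The 10 genes themselves differed little between the controls, with ratios of replicate 2 to replicate 1 from 0.876 to 1.17.

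Of the 10 genes, 4 fell in DCKO (Dcx, Igfbpl1, Cd24a and St8sia4), 1 rose (Dpysl3) and 5 did not pass the test. The test was limma on log2(FPKM + 1) over 13434 genes, with an adjusted p below 0.05 as the threshold, and it called 14.3% of all tested genes lower and 13.0% higher (27.3% in either direction, and 43.1% had an unadjusted p below 0.05). The median log2 change of the 10 genes was -0.42, against -0.0157 over all tested genes. Both DCKO values lay below both control values for 7 of the 10 genes and above them for 2, against 37.6% and 33.9% of all tested genes (71.5% in either direction). With 2 libraries a group, an exact permutation test of a single gene cannot give a p below 0.333. Without DCKO replicate 2, 8 of the 10 genes were called lower, and without DCKO replicate 1 or control replicate 2 it was 3. With no filter on low values 1 was called lower, which was Dcx. RNA of a whole bulb cannot tell fewer cells of a type apart from less RNA per cell.

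**Figure D1:**
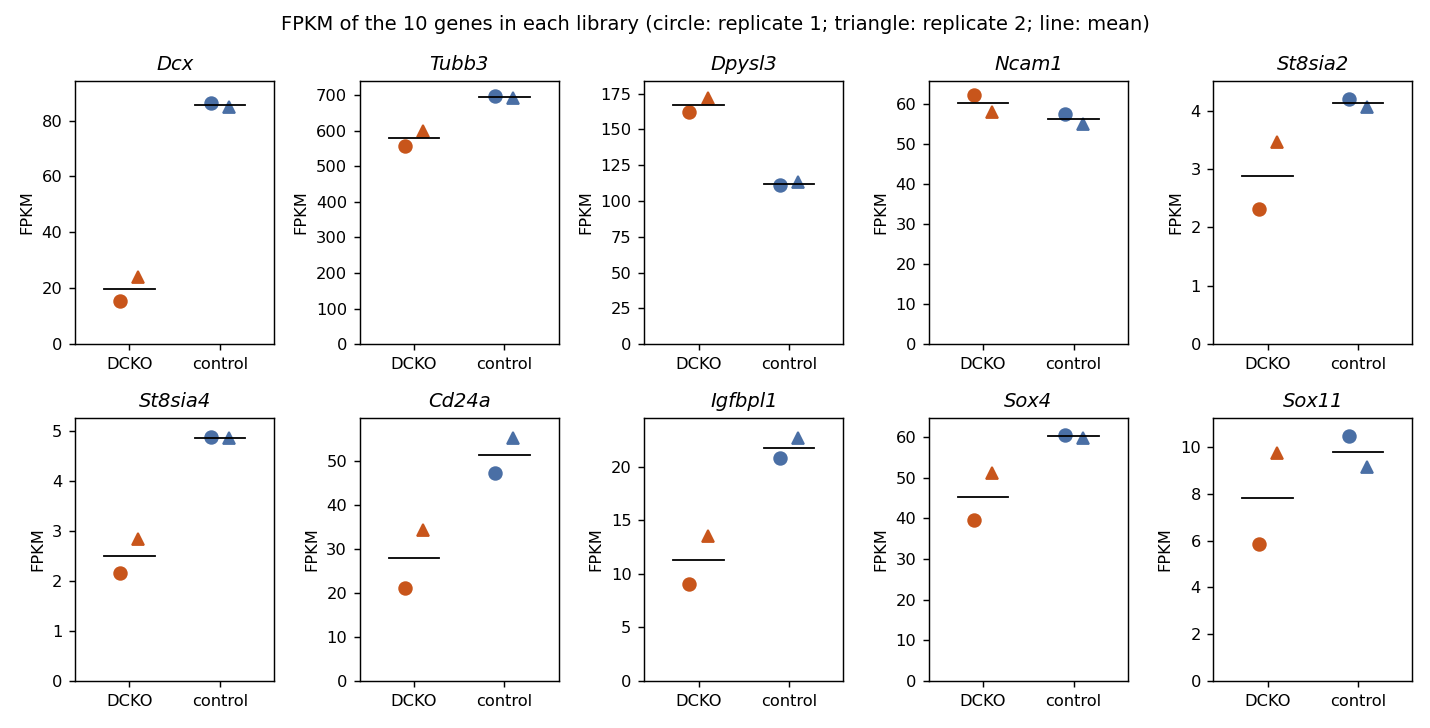
FPKM (vertical axis, starting at 0) of the 10 genes in the 2 DCKO libraries (left, orange) and the 2 control libraries (right, blue); circles are replicate 1, triangles replicate 2 and lines group means. Relative to the control level, Dcx has the widest gap, at 15.3 and 24.0 FPKM in DCKO against 86.1 and 84.9 FPKM in controls. Dpysl3 is the gene called higher.

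Among the cytoskeletal genes, Dcx fell, Dpysl3 rose and Tubb3 did not pass. Dcx encodes doublecortin, which binds and bundles microtubules in migrating neurons (ENSMUSG00000031285.14, chrX:143855842-143933311, GRCm38, - strand, protein-coding). It was at 15.3 and 24.0 FPKM in DCKO and at 86.1 and 84.9 FPKM in controls. Both DCKO values lay far below both controls, at 17.9% and 28.0% of the control mean. The mean of 19.6 ± 6.11 FPKM in DCKO and 85.5 ± 0.832 FPKM in controls (SD, n = 2 each) gave a 4.35-fold lower level and a log2 change of -2.10 (SE 0.20, 95% confidence interval -2.63 to -1.57, limma adjusted p = 0.00486). Behind these levels stood 3397 and 5113 scaled counts in DCKO and 18370 and 19518 in controls, which gave a log2 change of -2.14. Dcx is X-linked. DCKO replicate 1, the library with high Xist, was below both controls in Dcx. DCKO replicate 2, whose Xist level was like that of the controls, was below them too, with the higher Dcx level of the DCKO libraries. Whether sex has a part in the Dcx level was not tested. Without any 1 library the Dcx call held, with log2 changes from -2.41 to -1.79.

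RefSeq promoter windows (GRCm38.p6, 250 bases before to 50 after a gene's start) were searched on both strands for GGGCGG, the GC box that Sp family factors are known to bind, and for TAATTA, a core that Dlx-type homeodomain factors are known to bind. They are shown for Dcx, which had the lowest DCKO level relative to control, and for the polysialyltransferase genes described further on, with either motif in capitals. Of the 10 genes 6 had a window, 7 windows in all. The GC box was in 4 of these 7 windows (Tubb3, Sox11, St8sia2 and St8sia4), against 35.7% of all 32851 windows. TAATTA was in the 2 overlapping Dcx windows, against 5.3% of all windows. In the Dcx window shown, chrX:143933075-143933374 on the - strand, TAATTA began at position -134 from the start and GGGCGG was not among the letters.
Dcx: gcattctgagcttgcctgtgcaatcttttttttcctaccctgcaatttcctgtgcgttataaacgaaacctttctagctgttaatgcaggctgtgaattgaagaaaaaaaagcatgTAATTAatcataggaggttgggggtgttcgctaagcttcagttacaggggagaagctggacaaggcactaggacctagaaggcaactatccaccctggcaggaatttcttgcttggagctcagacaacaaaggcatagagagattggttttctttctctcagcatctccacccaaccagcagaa
St8sia2: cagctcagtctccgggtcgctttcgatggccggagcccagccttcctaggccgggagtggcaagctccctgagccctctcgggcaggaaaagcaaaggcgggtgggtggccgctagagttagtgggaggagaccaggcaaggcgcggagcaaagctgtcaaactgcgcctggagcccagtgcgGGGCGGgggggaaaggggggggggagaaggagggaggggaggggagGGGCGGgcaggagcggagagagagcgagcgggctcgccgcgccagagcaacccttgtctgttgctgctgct
St8sia4: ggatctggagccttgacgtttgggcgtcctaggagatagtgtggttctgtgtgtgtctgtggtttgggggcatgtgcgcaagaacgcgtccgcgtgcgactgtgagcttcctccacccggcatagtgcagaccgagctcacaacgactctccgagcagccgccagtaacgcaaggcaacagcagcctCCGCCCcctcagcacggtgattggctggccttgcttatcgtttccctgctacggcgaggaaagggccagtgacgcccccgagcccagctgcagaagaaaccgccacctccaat
The St8sia2 window is chr7:74013633-74013932 and the St8sia4 window chr1:95667545-95667844, both on the - strand. The capitals in St8sia4 are the GC box read on the other strand. A match of letters is not a binding site, and the 3 windows shown had G and C contents of 44.7%, 68.7% and 61.3%, against a median of 52.7% over all windows.

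Tubb3 encodes a beta-tubulin made mainly by neurons, from the time they are born (ENSMUSG00000062380.4, chr8:123411424-123422015, + strand). It stood at 558 and 598 FPKM in DCKO and at 697 and 692 FPKM in controls, the highest level of the 10 genes. The groups did not overlap, but the difference was small: DCKO kept 80.4% and 86.2% of the control mean. The log2 change of -0.26 (95% confidence interval -0.47 to -0.06) did not pass over all genes (limma adjusted p = 0.0669). It passed without DCKO replicate 2 (adjusted p = 0.0475) and with quantile normalization (adjusted p = 0.0232, log2 change -0.36). Tubulin genes share long stretches of coding sequence, and Tubb3 overlaps the gene Gm20388 on the same strand, so how the authors' counting split such reads bears on its level.

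Dpysl3 encodes CRMP4, a cytosolic phosphoprotein of growing axons (ENSMUSG00000024501.20, chr18:43320984-43438286, - strand). Its levels were 162 and 172 FPKM in DCKO and 111 and 113 FPKM in controls, so both DCKO libraries lay above both controls. It rose 1.49-fold, to 167 ± 6.73 FPKM in DCKO, against 112 ± 1.06 FPKM in controls (SD, n = 2 each, log2 change 0.57, SE 0.07, 95% confidence interval 0.40 to 0.74, limma adjusted p = 0.00748). The call held without any 1 library, with a highest adjusted p of 0.0343.

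Of the polysialylation genes, 1 of the 2 enzymes fell, while the other enzyme and the carrier Ncam1 did not pass. Ncam1 encodes NCAM, the protein that carries polysialic acid in the brain (ENSMUSG00000039542.16, chr9:49502136-49798925, - strand). It was at 62.3 and 58.0 FPKM in DCKO and at 57.5 and 55.0 FPKM in controls. DCKO lay above the controls, but by less than the gap within DCKO, and the log2 change of 0.09 did not pass (95% confidence interval -0.09 to 0.28, limma adjusted p = 0.349). That interval excludes a decrease like that of Dcx. Ncam1 is also made by mature neurons and glia, and it overlaps the antisense gene Gm11149, whose reads cannot be told from its own where the strand setting is not given.

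St8sia4 and St8sia2 encode the polysialyltransferases that build polysialic acid on NCAM. St8sia4 (ENSMUSG00000040710.10, chr1:95587682-95667571, - strand) was at 2.16 and 2.83 FPKM in DCKO and at 4.87 and 4.85 FPKM in controls. The DCKO libraries held 44.4% and 58.2% of the control mean, and the groups did not overlap. It fell 1.95-fold, to 2.49 ± 0.473 FPKM in DCKO, against 4.86 ± 0.0113 FPKM in controls (SD, n = 2 each, log2 change -0.75, SE 0.13, 95% confidence interval -1.08 to -0.42, limma adjusted p = 0.0174). At such low FPKM the added 1 shrinks the log2 change, which was -0.97 on the scaled counts. The call held without any 1 library (highest adjusted p 0.0466, without control replicate 2) and was lost with no filter (adjusted p = 0.0648).

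St8sia2 (ENSMUSG00000025789.9, chr7:73939119-74013690, - strand) was at 2.31 and 3.46 FPKM in DCKO and at 4.20 and 4.06 FPKM in controls. DCKO replicate 1 was at 55.8% of the control mean and DCKO replicate 2 at 83.7%, so the libraries of this genotype differed more than the controls did. The log2 change of -0.42 did not pass (95% confidence interval -0.85 to 0.01, limma adjusted p = 0.124), though it did without DCKO replicate 2 (adjusted p = 0.0353). The confidence intervals of the polysialyltransferase changes overlap. Both genes overlap predicted genes in the annotation (Gm37642 for St8sia4, Gm45003 and Gm38143 for St8sia2). Summed, the polysialyltransferase transcripts came to 4.47 and 6.28 FPKM in DCKO and 9.07 and 8.91 FPKM in controls. Set against Ncam1 in the same library, this was 7.17% and 10.8% in DCKO and 15.8% and 16.2% in controls.

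The transcripts of the surface protein and the secreted protein fell to about the same share of control. Cd24a encodes a small glycosylated surface protein of neuroblasts that blood cells and ependyma carry too (ENSMUSG00000047139.9, chr10:43578284-43584265, + strand). It was at 21.2 and 34.3 FPKM in DCKO and at 47.3 and 55.2 FPKM in controls, without overlap. The fall was 1.84-fold, to 27.8 ± 9.26 FPKM in DCKO, against 51.2 ± 5.57 FPKM in controls (SD, n = 2 each, log2 change -0.89, SE 0.23, 95% confidence interval -1.49 to -0.29, limma adjusted p = 0.0470). This call sat at the threshold. It ended when DCKO replicate 1 (log2 change -0.56, adjusted p = 0.0565) or control replicate 2 (-0.78, adjusted p = 0.0864) was left out. It was lost as well with no filter (adjusted p = 0.147), no intensity trend (0.0608), upper quartile scaling (0.0532) and quantile normalization (0.0501). Hba-a1, a globin gene of red blood cells with a near-identical copy, was at 1220 and 1685 FPKM in DCKO and at 493 and 196 FPKM in controls. Whether blood content has a part in the Cd24a level was not tested.

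Igfbpl1 encodes a secreted protein related to the insulin-like growth factor binding proteins (ENSMUSG00000035551.6, chr4:45809468-45826923, - strand). It was at 9.01 and 13.5 FPKM in DCKO and at 20.8 and 22.7 FPKM in controls. Both DCKO libraries lay below both controls, at 41.4% and 62.3% of the control mean, close to the 41.5% and 67.0% of Cd24a. It fell 1.93-fold, to 11.3 ± 3.20 FPKM in DCKO, against 21.7 ± 1.39 FPKM in controls (SD, n = 2 each, log2 change -0.91, SE 0.19, 95% confidence interval -1.40 to -0.43, limma adjusted p = 0.0273). The call held without any 1 library (highest adjusted p 0.0487) and was lost with no filter on low values. The ratio of Cd24a to Igfbpl1 was 2.36 and 2.54 in DCKO and 2.28 and 2.43 in controls, so it changed little between any of the libraries.

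Neither SoxC transcription factor passed. Sox4 and Sox11 switch on neuronal genes, among them Tubb3 and Dcx, in newborn neurons. Sox4 (ENSMUSG00000076431.4, chr13:28948919-28953713, - strand, overlapped by Gm26735 on the other strand) was at 39.6 and 51.1 FPKM in DCKO and at 60.6 and 59.8 FPKM in controls. The groups did not overlap, but DCKO replicate 2 was at 84.8% of the control mean (log2 change -0.41, 95% confidence interval -0.75 to -0.08, limma adjusted p = 0.0724). Sox11 (ENSMUSG00000063632.6, chr12:27334264-27342574, - strand) was at 5.87 and 9.77 FPKM in DCKO and at 10.5 and 9.17 FPKM in controls. It is the 1 gene of the 10 whose groups overlap, since DCKO replicate 2 lay between the controls (log2 change -0.33, 95% confidence interval -0.91 to 0.26, adjusted p = 0.317). Without DCKO replicate 2, both passed (Sox4 log2 change -0.59, adjusted p = 0.0187, and Sox11 -0.65, adjusted p = 0.0371), and without DCKO replicate 1 the Sox11 change was -0.00. Sox12, the remaining SoxC member, was at 9.68 and 11.7 FPKM in DCKO and at 15.1 and 15.3 FPKM in controls and fell (log2 change -0.48, adjusted p = 0.0297). Leaving out either control ended this call (adjusted p = 0.0800 without replicate 1 and 0.0972 without replicate 2).

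**Figure D2:**
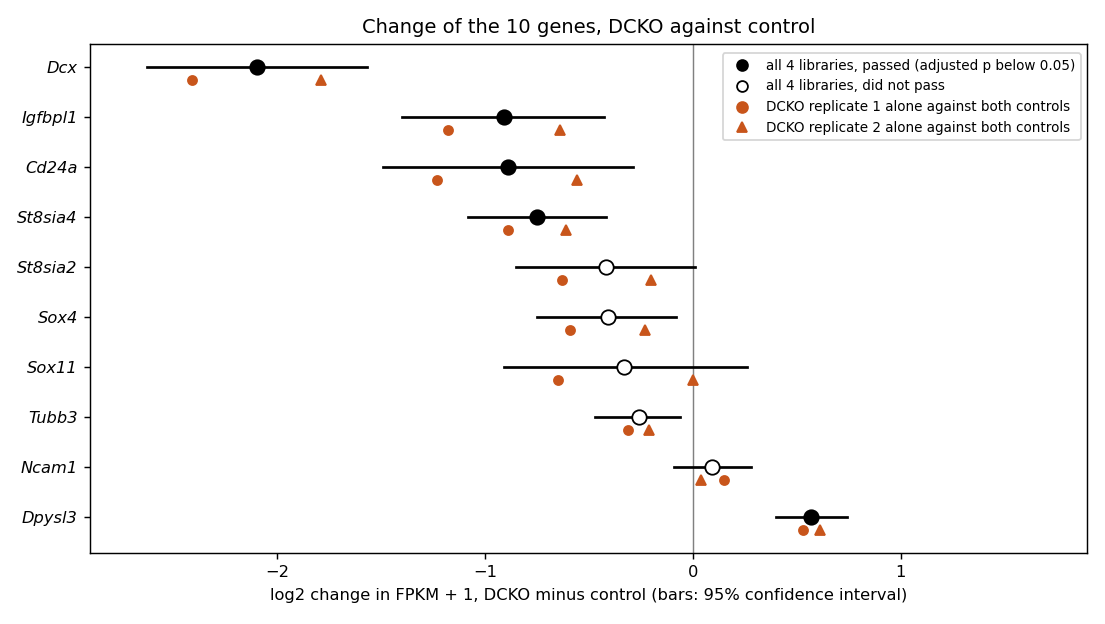
Log2 change in FPKM + 1, DCKO minus control (horizontal axis), for the 10 genes ordered by change; bars are 95% confidence intervals, filled circles passed and open circles did not. Orange marks set each DCKO library alone against both controls: for the 8 genes with a negative change, replicate 1 (circle) lies further from 0 than replicate 2 (triangle).

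The libraries of the DCKO group differed in 1 direction across these genes. DCKO replicate 2 was above DCKO replicate 1 for 9 of the 10 genes, with ratios from 0.931 (Ncam1) to 1.66 (Sox11) and a median of 1.40. Over all tested genes it was above in 59.3%, with a median ratio of 1.03, and among the genes called lower in 62.7%. The ratio exceeded 1.2 for 7 of the 10 genes, against 15.4% of all tested genes. Summed FPKM of the 6 GABAergic interneuron markers was 88.8 in DCKO replicate 1 and 134 in DCKO replicate 2. For the list of 10 neuroblast transcription factors it was 89.3 and 137, so this direction was not particular to the genes described here. Summed FPKM of 7 markers of dividing cells, at 33.5 in DCKO replicate 1 and 41.2 in DCKO replicate 2, and of 7 oligodendrocyte markers, at 989 and 556, differed between these libraries too. Whether sex, cell composition or dissection has a part in the DCKO difference was not tested.

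Ratios between genes of 1 library do not depend on its scaling. Dcx to Tubb3 was 0.0275 and 0.0401 in DCKO and 0.124 and 0.123 in controls. Dpysl3 to Tubb3 was 0.291 and 0.287 in DCKO and 0.160 and 0.163 in controls, so the 3 cytoskeletal genes moved unequally. St8sia4 to Ncam1 was 0.0346 and 0.0487 in DCKO and 0.0846 and 0.0882 in controls, and St8sia2 to Ncam1 was 0.0370 and 0.0596 in DCKO and 0.0731 and 0.0738 in controls. Sox4 to Sox11 was 6.73 and 5.23 in DCKO and 5.79 and 6.52 in controls, with overlap. With 2 libraries a group none of these ratios can reach an exact permutation p below 0.333.

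**Figure D3:**
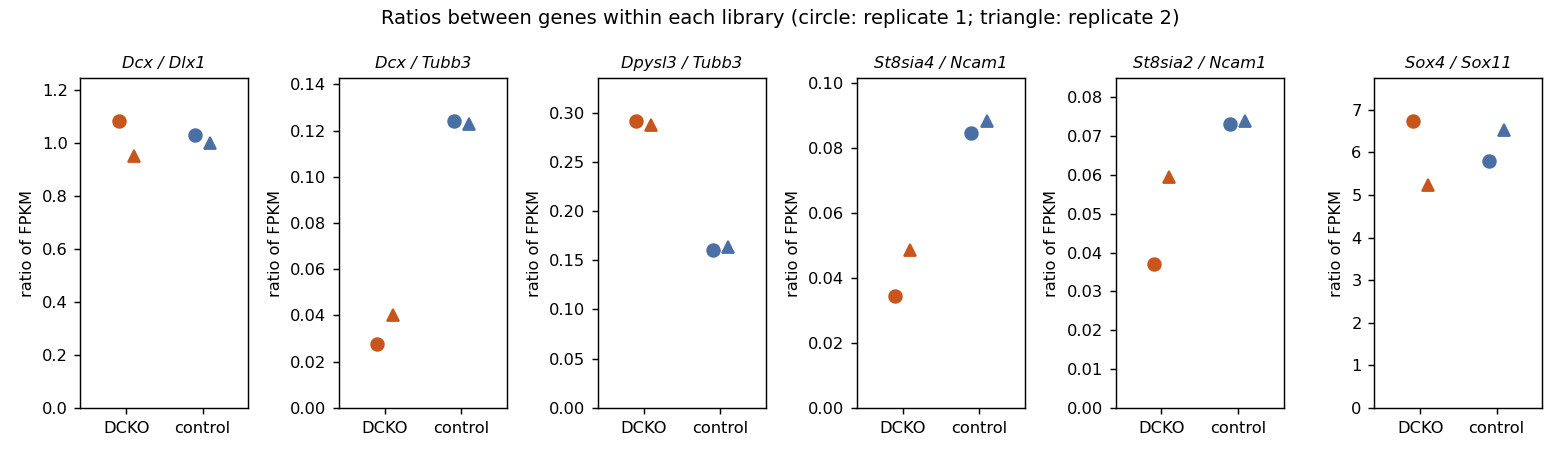
Ratios of FPKM between pairs of genes (vertical axes, starting at 0) within each DCKO library (left, orange) and each control library (right, blue); circles are replicate 1 and triangles replicate 2. Dcx per Dlx1 lies between 0.951 and 1.08 in the 4 libraries, which the choice of Dlx1 as the gene nearest to Dcx in these libraries fixes. Dcx per Tubb3 is at 0.0275 and 0.0401 in DCKO and at 0.124 and 0.123 in controls.

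The tested genes most like Dcx over the 4 libraries, by distance between centred log2(FPKM + 1) profiles, were Dlx1 (distance 0.131), Pbx3 (0.138) and Adarb2 (0.151). Dlx1, a homeobox gene of the GABAergic lineage, was at 14.1 and 25.2 FPKM in DCKO and at 83.4 and 84.8 FPKM in controls. The ratio of Dcx to Dlx1 lay between 0.951 and 1.08, a likeness for which Dlx1 was chosen and which is a description. Pbx3, a homeobox gene, was at 9.77 and 14.5 FPKM in DCKO and at 56.8 and 60.2 FPKM in controls. Adarb2, of the RNA-editing enzyme family, was at 1.85 and 3.10 FPKM in DCKO and at 15.4 and 14.7 FPKM in controls. Of the other 9 genes described here Igfbpl1 (distance 1.19) and Cd24a (1.22) came nearest to Dcx, at ranks 392 and 414 of the tested genes, and Dpysl3 was farthest (2.70).

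Around the 10 genes, 11 related lists held 104 other genes, 103 of them tested. Of these 26 fell (25.2%) and 19 rose (18.4%), against 14.3% and 13.0% of all tested genes, with a median log2 change of 0.02. The lists were written from general knowledge with earlier results of these data known, and their shares are a description. With no filter on low values, 0 genes were called lower among the adhesion molecules and the other immature neuron genes, and 1 among the other Sox factors. Under that setting 0 were called higher among the tubulins, the sialic acid genes and the migration genes. With a filter at a mean of 5 FPKM, which removes low genes from the test, 1 migration gene was called lower, 0 neuroblast transcription factors and 1 mature neuron gene were called higher, and 2 stathmins were.

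Most transcription factors of the neuroblast lineage fell. Of 10 tested, 9 were called lower and 1 higher, with a median log2 change of -1.85. Meis2, a homeobox gene of bulb granule cells, was at 7.55 and 11.5 FPKM in DCKO and at 83.3 and 82.2 FPKM in controls (log2 change -3.02, limma adjusted p = 0.00172). Tshz1, a zinc finger gene needed for interneuron migration in the bulb, was at 8.72 and 10.3 FPKM in DCKO and at 64.4 and 65.6 FPKM in controls (-2.66, adjusted p = 0.000742). Pbx3, given above, fell too (-2.20, adjusted p = 0.00326). Without control replicate 1 or 2, 8 were called lower.

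Receptors and ligands of neuroblast migration gave 4 of 12 lower and 1 higher (median log2 change -0.08). Prokr2, receptor for the attractant prokineticin 2, was at 0.424 and 0.859 FPKM in DCKO and at 13.7 and 11.9 FPKM in controls (-3.08, limma adjusted p = 0.00119). Erbb4, a neuregulin receptor, was at 2.01 and 2.87 FPKM in DCKO and at 6.62 and 7.41 FPKM in controls (-1.23, adjusted p = 0.00845). Slit1, a secreted repellent, was at 2.75 and 3.35 FPKM in DCKO and at 6.71 and 5.97 FPKM in controls (-0.86, adjusted p = 0.0109). With no filter on low values the Slit1 call was lost (limma adjusted p = 0.0516). The gene called higher was Efnb2, the ligand ephrin-B2 (0.51, adjusted p = 0.0220). The Efnb2 call ended when DCKO replicate 1 (adjusted p = 0.0567), DCKO replicate 2 (0.0678) or control replicate 1 (0.0714) was left out.

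Of the 4 relatives of Dpysl3, the other collapsin response mediator proteins, 3 fell and Dpysl2 did not pass (median log2 change -0.41). With no filter on low values, 0 of the 4 were called, with adjusted p of 0.0795 for Dpysl5, 0.0906 for Crmp1 and 0.0530 for Dpysl4. Dpysl5 was at 31.1 and 40.1 FPKM in DCKO and at 59.6 and 57.0 FPKM in controls (log2 change -0.71, limma adjusted p = 0.0203). Crmp1 was at 120 and 144 FPKM in DCKO and at 182 and 191 FPKM in controls (-0.50, adjusted p = 0.0285), and Dpysl4 at 35.4 and 33.9 FPKM in DCKO and at 42.4 and 44.7 FPKM in controls (-0.32, adjusted p = 0.0279). Without either control 1 of the 3 calls held, that of Dpysl5: Crmp1 missed the threshold when control replicate 1 (adjusted p = 0.0615) or 2 (0.0966) was left out. Dpysl4 missed it when DCKO replicate 2 (0.0577), control replicate 1 (0.0877) or control replicate 2 (0.169) was.

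Among 4 stathmins, which bind free tubulin and destabilise microtubules, 1 rose and 0 fell (median log2 change 0.50). Stmn2 was at 325 and 320 FPKM in DCKO and at 180 and 186 FPKM in controls (0.82, limma adjusted p = 0.00317). Without DCKO replicate 1, 3 stathmins passed, and without DCKO replicate 2 it was 2. Of 9 other microtubule proteins of migrating neurons, 1 fell and 2 rose (median 0.02). Nde1, a partner of the dynein regulator Lis1 that acts in dividing progenitors, was at 18.0 and 19.0 FPKM in DCKO and at 11.7 and 11.4 FPKM in controls (0.64, adjusted p = 0.00649). Map1b, a microtubule protein of growing axons, was at 125 and 116 FPKM in DCKO and at 87.4 and 89.8 FPKM in controls (0.44, adjusted p = 0.0150). Dclk2, a kinase of the doublecortin family, was at 40.5 and 38.4 FPKM in DCKO and at 48.7 and 49.7 FPKM in controls (-0.31, adjusted p = 0.0279). Leaving out control replicate 1 (adjusted p = 0.0728) or 2 (0.0634) ended the Map1b call, and DCKO replicate 2 (0.0510), control replicate 1 (0.115) or control replicate 2 (0.157) that of Dclk2.

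Of 11 tubulins besides Tubb3, 1 fell and 1 rose (median log2 change 0.02). Tuba8, an alpha-tubulin of restricted expression, was at 1.37 and 1.45 FPKM in DCKO and at 13.9 and 17.1 FPKM in controls (-2.77, limma adjusted p = 0.000893). Tubb5, a widely expressed beta-tubulin, was at 338 and 377 FPKM in DCKO and at 290 and 273 FPKM in controls (0.34, adjusted p = 0.0464). The Tubb5 call rested on DCKO replicate 2 (adjusted p = 0.0770 when left out), control replicate 1 (0.159) and control replicate 2 (0.269). Tuba8 was therefore the 1 tubulin whose call held without any 1 library.

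Genes of sialic acid synthesis, transfer and removal gave 0 lower and 2 higher among 11 tested (median log2 change 0.11), with St8sia6 below the filter. Nans, which makes the sialic acid precursor, was at 18.3 and 16.0 FPKM in DCKO and at 12.4 and 12.9 FPKM in controls (0.40, limma adjusted p = 0.0314). St8sia1, which adds sialic acid to gangliosides and not to NCAM, was at 7.96 and 7.41 FPKM in DCKO and at 5.65 and 5.79 FPKM in controls (0.37, adjusted p = 0.0325). Both calls ended when DCKO replicate 1 (adjusted p = 0.0638 for Nans and 0.0795 for St8sia1), control replicate 1 (0.117 and 0.167) or control replicate 2 (0.0966 and 0.148) was left out. Without DCKO replicate 2, 2 genes of this list were called lower.

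A list of adhesion molecules, mostly of the Ncam1 and L1 families, gave 1 lower and 4 higher of 9 (median log2 change 0.44). It also holds Fgfr1, a receptor tyrosine kinase that NCAM is known to bind and no adhesion molecule, which is 1 of the 4 (0.44, limma adjusted p = 0.0132, and 0.0726 without control replicate 2). Chl1, a relative of L1, was at 14.9 and 19.7 FPKM in DCKO and at 6.14 and 6.74 FPKM in controls (1.29, limma adjusted p = 0.00697). Cntn2, a contactin of growing axons, was at 19.2 and 18.9 FPKM in DCKO and at 12.1 and 13.5 FPKM in controls (0.54, adjusted p = 0.0125). Ncam2, the paralogue of Ncam1, was at 6.19 and 7.17 FPKM in DCKO and at 11.7 and 9.17 FPKM in controls (-0.57, adjusted p = 0.0410). Leaving out DCKO replicate 1 (adjusted p = 0.133), DCKO replicate 2 (0.0707) or control replicate 1 (0.136) ended the Ncam2 call.

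Other genes of immature neurons divided into 2 lower, 3 higher and 7 that did not pass (median log2 change 0.01). Elavl4 and Elavl2, neuronal RNA-binding proteins, rose: Elavl4 was at 30.9 and 30.4 FPKM in DCKO and at 13.3 and 14.2 FPKM in controls (1.10, limma adjusted p = 0.00179). Elavl2 was at 26.0 and 31.7 FPKM in DCKO and at 14.6 and 15.5 FPKM in controls (0.89, adjusted p = 0.00838). Nrep, a small protein of regenerating and migrating cells, was at 90.5 and 145 FPKM in DCKO and at 218 and 210 FPKM in controls (-0.89, adjusted p = 0.0437). Leaving out either control ended the Nrep call (adjusted p = 0.0644 without replicate 1 and 0.0610 without replicate 2). Gap43, an axon growth protein, was at 231 and 279 FPKM in DCKO and at 154 and 171 FPKM in controls (0.64, adjusted p = 0.0207), a call lost without control replicate 1 (0.0638).

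Of 11 other Sox factors, 2 fell and 4 rose (median log2 change 0.32). Sox1, found in neural precursors and some GABAergic neurons, was at 7.72 and 8.70 FPKM in DCKO and at 13.9 and 15.3 FPKM in controls (-0.76, limma adjusted p = 0.00847). Sox6 was at 4.75 and 4.79 FPKM in DCKO and at 1.72 and 2.18 FPKM in controls (0.97, adjusted p = 0.00849), and Sox21, of neural precursors and glia, at 7.19 and 8.12 FPKM in DCKO and at 4.27 and 4.37 FPKM in controls (0.70, adjusted p = 0.0102). Mature neuron genes gave 3 lower and 0 higher of 10 (median -0.29). Rbfox3, the gene of the nuclear antigen NeuN, was at 5.07 and 5.03 FPKM in DCKO and at 32.6 and 38.4 FPKM in controls (-2.59, adjusted p = 0.000745). Camk2a, a kinase of the synapse, was at 30.7 and 28.0 FPKM in DCKO and at 97.0 and 108 FPKM in controls (-1.77, adjusted p = 0.00112). Eno2, the neuronal enolase, was at 176 and 155 FPKM in DCKO and at 230 and 241 FPKM in controls (-0.51, adjusted p = 0.0182), a call lost without control replicate 1 (0.0527) or 2 (0.0823). Without DCKO replicate 2, 2 of the mature neuron genes were called higher.

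**Figure D4:**
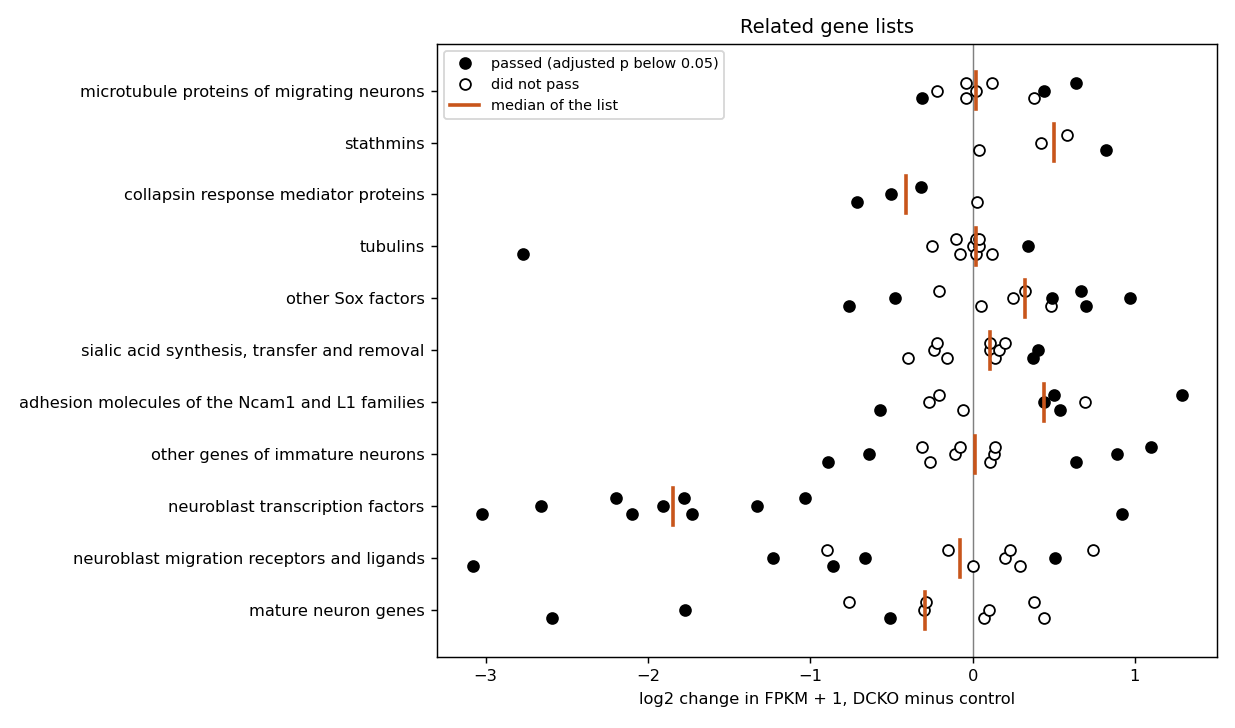
Log2 change in FPKM + 1, DCKO minus control (horizontal axis), of each tested gene in 11 related lists (rows); filled circles passed, open circles did not, and orange bars are list medians. The neuroblast transcription factors have the lowest list median, -1.85, with 9 of 10 called lower, while 9 of the other lists spread to both sides of 0.

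Markers of several cell types of the bulb changed too, some lower and some higher, and their part in the results was not tested. All 6 markers of GABAergic interneurons were lower, with a summed level of 88.8 and 134 FPKM in DCKO and 759 and 735 FPKM in controls. All 6 mitral and tufted cell markers were higher (1594 and 1424 FPKM in DCKO, 737 and 803 FPKM in controls), as were all 7 of dividing cells (33.5 and 41.2 FPKM in DCKO, 17.1 and 15.9 FPKM in controls). Of the dividing cell markers 2 were called with no filter on low values, and 2 with a filter at a mean of 5 FPKM, which removes low genes from the test. The astrocyte list had 5 of 6 higher (985 and 927 FPKM in DCKO, 519 and 514 FPKM in controls), the microglia list 4 of 6 (101 and 108 FPKM in DCKO, 71.7 and 71.8 FPKM in controls) and the endothelial list 2 of 5 (148 and 148 FPKM in DCKO, 117 and 114 FPKM in controls). Without control replicate 1 the microglia count was 2 and the endothelial count 0, without control replicate 2 they were 1 and 0, and without DCKO replicate 2 the endothelial count was 1. With no filter the microglia count was 2, and the endothelial and red blood cell counts were 1. No oligodendrocyte marker of 7 passed (989 and 556 FPKM in DCKO, 570 and 769 FPKM in controls), nor did any of 5 tested markers of olfactory sensory neurons (202 and 165 FPKM in DCKO, 296 and 113 FPKM in controls). Without control replicate 2, 4 markers of the sensory neurons were called lower. Both tested red blood cell genes were higher (1229 and 1697 FPKM in DCKO, 495 and 198 FPKM in controls; 1 of them when either DCKO library was left out), as was 1 of 2 tested ependymal genes (20.2 and 17.1 FPKM in DCKO, 11.2 and 9.75 FPKM in controls). No marker on these lists was listed at 0 in any library.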

How the data were processed

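Total RNA of dissected, frozen olfactory bulbs was made into libraries with Illumina protocols, per the labels' protocols. Per the submitters' processing notes, TopHat (version not given) and Cufflinks 2.1.1 were used with GRCm38.p4; annotation, strand and multiple-mapping settings could not be read from the labels. The FPKM columns were deposited by the authors. The columns headed count were deposited by the authors as a signal: in each library 98.7% to 98.9% of them are, to 0.05, whole multiples of a library-specific step. No count model was run on them. Columns of per-sample values left unmapped number 0.

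The 13434 genes averaging 1 FPKM or more entered limma 3.58.1 (R 4.3.3) as log2(FPKM + 1), DCKO minus control, with an intensity trend. Tests were two-sided, with Benjamini-Hochberg adjustment over all of these genes. The model was also run on data simulated from its own fitted variances, which cannot tell whether its assumptions hold in these libraries. Folds are ratios of mean FPKM. The 10 genes and the lists were chosen with earlier results of these data known. Of each related list up to 3 called genes of largest change are named. Sox12, Gap43, Efnb2, Fgfr1, Cnga2, Gng13 and Hba-a1 were chosen after their values were seen. The values of 1 gene of the neuroblast transcription factor list are not reported here. Jpt1 was matched to its older symbol Hn1, and Hbb-bt was not matched. Coordinates are from GENCODE M21 (GRCm38). Alternatives covered pseudocount, filter, scaling, trend, replicate block, single libraries left out and the scaled counts.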

Additional observations from a re-analysis of the deposited data

How the results depend on the processing

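St8sia2 and St8sia4 fall below a filter at a mean of 5 FPKM and have no value there. Over 14 alternatives no change of the 10 genes reversed in the 138 values obtained, though that of Sox11 was -0.00 without DCKO replicate 1. The verdict of the test was the same in 125 of these, lost in 8 (6 of them Cd24a) and gained in 5. The genes called lower numbered 4 of the 10 with all libraries, 1 with no filter, and 3 to 8 when 1 library was left out. The gene called higher was Dpysl3 under every alternative. Over all tested genes, 1926 were called lower and 1747 higher, against 1045 and 732 with no filter. When 1 library was left out, 1030 to 1875 were called lower and 806 to 1384 higher. A fit that leaves 1 library in a group assumes that it varies like the other group.

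Replicate numbers are shared by the genotypes, but same-numbered libraries did not deviate together (correlation of deviations across genes -0.0211). With the replicate block, 4 of the 10 genes were called lower and 1 higher, and 1418 and 1312 of all tested genes. A count model listed among the alternatives was not run, since the deposited counts are scaled. Among the related and cell type lists, 519 of 588 counts stayed within 1.5 times under the alternatives and 69 did not.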
